A study of Mus musculus with 8 samples.

Results

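The course of gene expression from day 3 to day 7 was followed in bone marrow mesenchymal stem cells cultured with scaffold extracts that contained S7. The comparison set the day 7 libraries of PCL-S and PCL-SE against their day 3 libraries, with 2 libraries a side, 4 of the 8 libraries of the series. A gene was included when both libraries of at least 1 of the 2 days held 5 CPM or more (CPM, counts scaled to a common library total), which 10437 of the 22050 rat Ensembl genes in the table did. Of these, 9546 reached that level on both days, 355 on day 3 only and 536 on day 7 only. The cells are given as a wild type line and their treatment as osteogenic differentiation. They were not grown on the scaffolds but received DMEM with 10% serum in which polycaprolactone (PCL, a degradable polyester used for implants) had been soaked for 72 h. PCL-S names scaffolds with S7, PCL-E with E7 and PCL-SE with both, which the series title calls peptides. PCL-O is the remaining scaffold and was taken as the blank. Each arm and day had 1 library, so the 2 libraries of a day are different arms and no arm was repeated. Every p-value rests on how far the 8 libraries departed from the fitted terms (S7, day, their interaction and E7), not on repeated cultures. The labels name the mouse as the organism and its mm10 build, while the table holds rat gene identifiers. Gene names here follow the table, no coordinate or sequence was used, and the species was not settled.

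Osteogenic culture takes marrow stromal cells from a dividing state to one that lays down a collagen matrix and later mineralises it. The osteoblast folds type I collagen in the endoplasmic reticulum, secretes it and crosslinks it outside the cell. The osteoblast also loads the matrix with non-collagenous proteins, and uses alkaline phosphatase and phosphate transporters to deposit mineral. Stromal cells kept on plastic also carry actin stress fibres and smooth muscle proteins. NRF2, a transcription factor released when its inhibitor KEAP1 is oxidised, drives genes for glutathione, NADPH and haem breakdown. PPARs are nuclear receptors for fatty acids.

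The 4 libraries with S7 held between 32950326 and 40983073 counts, so 3 counts were worth 0.0732 to 0.0910 CPM. The 10 genes with the most counts took 13.6% and 13.0% of the counts on day 3 and 7.16% and 7.10% on day 7 in PCL-S and PCL-SE. Among the markers of stromal cells, all 9 were above 1 CPM, with a summed level of 6087 and 6249 CPM on day 3 and 3550 and 3485 CPM on day 7. Of the 8 osteoblast markers, Sp7, Bglap and Ibsp stayed under 1 CPM in all 4 libraries. The summed level of the 8 was 914.9 and 956.8 CPM on day 3 and 1711 and 2833 CPM on day 7. Nearly all of it was Spp1, which reached 2795 CPM, so the sum follows that gene. Of the others, Alpl fell and Runx2 was not called, as given below. Markers of other cell types were also measured. Of 10 macrophage and blood cell markers, 9 were under 1 CPM and the exception was Cd14, which reached 18.9 CPM. Of 6 endothelial markers in the table, 5 were under 1 CPM and the exception was Tek, which reached 14.1 CPM. The adipocyte markers Adipoq, Plin1 and Cidec were under 1 CPM, and the summed level of 6 such markers was 11.6 and 11.9 CPM on day 3 and 19.2 and 14.3 CPM on day 7. Chondrocyte markers summed to 189.4 and 203.1 CPM on day 3 and 99.85 and 106.4 CPM on day 7. Skeletal muscle markers summed to 75.1 and 75.5 CPM on day 3 and 4.13 and 2.61 CPM on day 7, and smooth muscle markers to 10895 and 11076 CPM and then 4806 and 4263 CPM. Their part in the results was not tested. These are bulk libraries, in which fewer cells of a type and less RNA per cell cannot be told apart.

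With S7, most of the genes expressed at 5 CPM changed between the days. Of the 10437 genes, 3424 rose and 2911 fell at an adjusted p under 0.05 (edgeR's quasi-likelihood test with Benjamini-Hochberg adjustment over 15942 tested genes), which was 60.7% of them, 32.8% higher and 27.9% lower. Over all tested genes 50.7% were called, 24.4% higher and 26.4% lower on day 7, and these shares are the background for every count of a gene group. In 82.3% of the tested genes the CPM of the 2 days, scaled to total counts, did not overlap. On that scale the median change of all tested genes was 0.28, which by itself moves the days apart. With 2 libraries a side, days can also separate without a change. With TMM scaling, 993 called genes of the 10437 fell by 2-fold or more and 646 rose by as much. At 4-fold the numbers were 247 and 100, and at 16-fold they were 28 and 16. Without S7, in PCL-O and PCL-E, 1.61% of the tested genes were called over the same days, 107 higher (0.671%) and 149 lower (0.935%). Unadjusted p-values under 0.05 numbered 9207 with S7 and 2514 without. The day changes differed between the arms with and without S7 for 28.7% of the tested genes, 2105 with the higher change under S7 (13.2%) and 2473 with the lower one (15.5%).

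The arms with S7 went the same way. Among 7752 genes with at least 20 CPM in a library, PCL-S had 405 genes at least 2-fold higher on day 7 (5.22%) and 640 lower (8.26%), and PCL-SE had 356 (4.59%) and 582 (7.51%). The arms shared 289 of the higher genes, 71.4% of those of PCL-S and 81.2% of those of PCL-SE. They shared 511 of the lower genes, 79.8% and 87.8% of the same lists, and 2 genes moved by 2-fold in opposite directions. On CPM scaled to total counts the higher genes outnumbered the lower, at 1032 and 381 in PCL-S and 921 and 364 in PCL-SE, with 783 and 324 shared. The log2 changes of the 2 arms had a Pearson r of 0.96 across genes, which are not independent replicates and whose changes in each arm come from 1 library a day. The sign was the same for 91.85% of the genes. The plot of the day changes of PCL-S against PCL-SE shows this.

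**Figure D1:**
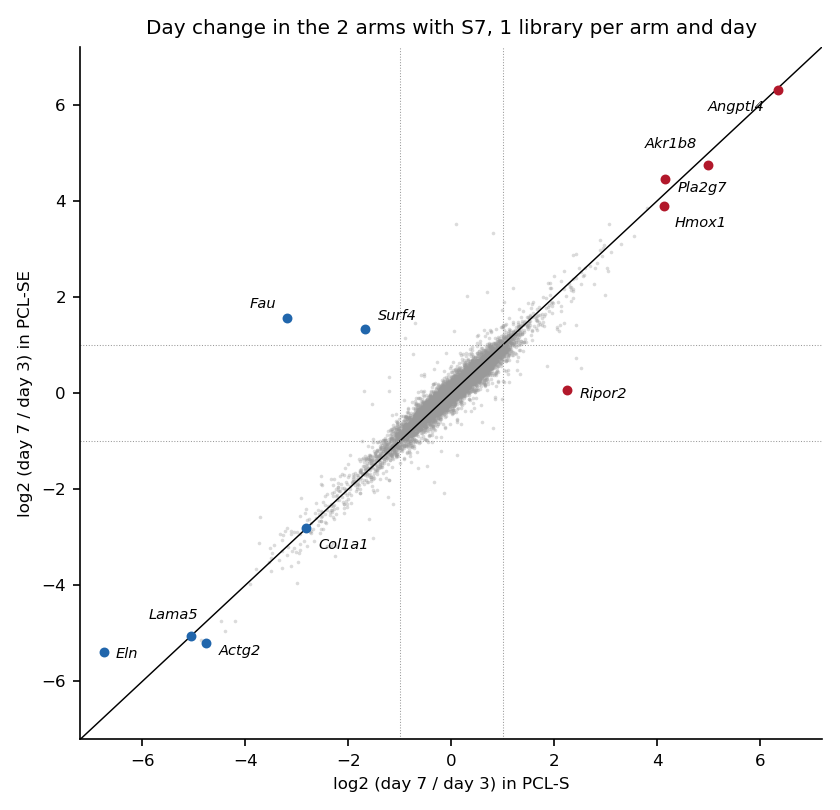
Each point is 1 of 7752 genes, with the log2 ratio of day 7 to day 3 in PCL-S on the x axis and in PCL-SE on the y axis, from 1 library per arm and day after 2 CPM were added. The solid line marks equal change and the dotted lines a 2-fold change. Most points lie along the line (r = 0.96), and Fau, Surf4 and Ripor2 are named as exceptions. Named points are red where the ratio in PCL-S is above 0 and blue where it is below.

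Scaling, gene length and single libraries moved these counts, and their part in the result was not tested. TMM factors were 0.93 and 0.94 for day 3 and 1.15 and 1.16 for day 7 with S7, and scaling to total counts instead moved the median change of all tested genes from -0.03 to 0.28 and the split from 3889 higher and 4201 lower to 6255 higher (39.2%) and 2685 lower (16.8%). For the difference between the arms with and without S7 that scaling gave 3721 higher and 1750 lower. The log2 change with S7 fell with length (Spearman -0.38 across 10437 genes, against -0.16 without S7). Leaving out the day 3 library of PCL-SE gave 2006 higher and 2473 lower genes with S7, leaving out that of PCL-S gave 2286 and 2723, and leaving out the day 7 library of PCL-S gave 2391 higher genes. For the difference between arms, 714 higher and 1029 lower genes were called without the day 3 library of PCL-O, 725 and 1137 without that of PCL-S, 943 and 1301 without that of PCL-E and 589 and 948 without that of PCL-SE. It was 909 and 1369 without the day 7 library of PCL-S, and 1356 higher genes without that of PCL-SE.

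In the accounts of gene groups that follow, values are CPM in PCL-S and then PCL-SE. Fold changes are log2 of day 7 over day 3 with S7, from the fit with TMM scaling. The SE after ± is the size of the log2 change divided by the square root of the test's F statistic. Examples within a group were chosen after their values were seen. The groups hold all tested members, including some under 5 CPM.

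The largest called rises included Angptl4, aldo-keto reductases and Cyp1a1. Angptl4, a secreted inhibitor of lipoprotein lipase induced by PPARs, was at 0.61 and 0.294 CPM on day 3 and 247 and 208 CPM on day 7 (log2 fold change 8.73 ± 1.57, adjusted p = 0.00396). It was under 1 CPM in both arms on day 3 and far above that in both on day 7. Akr1b7, an aldo-keto reductase, was at 0.0488 and 0 CPM on day 3 and 13.4 and 13.6 CPM on day 7, or 2 counts against 953, a ratio of 410.2 after TMM scaling (95% interval for counting error 113 to 3392). Its relative Akr1b8 was at 52.2 and 55.8 CPM on day 3 and 2108 and 1910.0 CPM on day 7 (log2 fold change 4.95 ± 0.96, adjusted p = 0.0055). Akr7a3, which reduces aflatoxin aldehydes, was at 0.268 and 0.176 CPM on day 3 and 5.71 and 7.41 CPM on day 7 (log2 fold change 4.50 ± 0.81, adjusted p = 0.00394). Cyp1a1, the cytochrome P450 induced by the aryl hydrocarbon receptor, was at 0.244 and 0.0587 CPM on day 3 and 34.0 and 31.9 CPM on day 7 (log2 fold change 7.46 ± 1.87, adjusted p = 0.015). Both arms were higher on day 7 in each of these reductase and P450 genes. The calls of 3 of them were lost in some fits that left out a library. Cyp1a1 had an adjusted p of 0.0675 without the day 3 library of PCL-S, 0.110 without that of PCL-SE and 0.0809 without the day 7 library of PCL-S. Akr1b8 had 0.0535 without the day 3 library of PCL-SE and 0.0501 without the day 7 library of PCL-S, and Akr7a3 had 0.0512 without the latter. Pla2g7, which hydrolyses platelet-activating factor and oxidised phospholipids, was at 1.83 and 1.61 CPM on day 3 and 78.5 and 91.7 CPM on day 7 (log2 fold change 5.30 ± 0.14, adjusted p = 2.72e-05), with the smallest error of these genes.

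Other large rises had varied roles. Nptx1, a secreted pentraxin of neurons, was at 0.22 and 0.352 CPM on day 3 and 10.6 and 10.9 CPM on day 7 (log2 fold change 4.94 ± 0.34, adjusted p = 0.000162). Rem2, a small GTPase of the RGK family, was at 0.488 and 0.646 CPM on day 3 and 19.2 and 22.3 CPM on day 7 (log2 fold change 4.89 ± 0.29, adjusted p = 0.000113). Rragd, a Rag GTPase that links amino acids to mTORC1 at the lysosome, was at 0.268 and 0.176 CPM on day 3 and 6.28 and 5.17 CPM on day 7 (log2 fold change 4.34 ± 0.39, adjusted p = 0.000325). Each of these was under 1 CPM in both arms on day 3 and above 5 CPM in both on day 7. Cst6, a secreted inhibitor of cysteine proteases, was at 0.342 and 0.47 CPM on day 3 and 15.4 and 11.4 CPM on day 7 (log2 fold change 4.88 ± 0.70, adjusted p = 0.00164). Edil3, an integrin-binding matrix protein, was at 0.586 and 0.705 CPM on day 3 and 13.9 and 21.4 CPM on day 7 (log2 fold change 4.43 ± 0.27, adjusted p = 0.000114). Adcyap1r1, the receptor of the peptide PACAP, was at 0.878 and 1.23 CPM on day 3 and 26.9 and 27.1 CPM on day 7 (log2 fold change 4.39 ± 0.24, adjusted p = 0.000113). Cited1, a transcriptional co-regulator, was at 1.00 and 1.26 CPM on day 3 and 25.2 and 30.5 CPM on day 7 (log2 fold change 4.36 ± 0.56, adjusted p = 0.00105). LOC100910708, an unnamed locus of the table, was at 1.98 and 2.14 CPM on day 3 and 52.99 and 45.8 CPM on day 7 (log2 fold change 4.33 ± 0.75, adjusted p = 0.00334). In all of these genes both day 7 values were many times both day 3 values.

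The largest called falls included Lama5, Casq2 and Eln. Lama5, a laminin alpha chain of basement membranes, was at 122 and 116 CPM on day 3 and 2.28 and 2.08 CPM on day 7 (log2 fold change -6.08 ± 0.45, adjusted p = 0.000178). Abi3bp, a matrix protein that binds the cell surface, was at 19.0 and 21.4 CPM on day 3 and 1.06 and 0.667 CPM on day 7 (log2 fold change -4.90 ± 0.34, adjusted p = 0.000162). Col2a1, the collagen of cartilage, was at 27.3 and 37.8 CPM on day 3 and 2.25 and 0.853 CPM on day 7 (log2 fold change -4.88 ± 0.55, adjusted p = 0.000646). Casq2, which stores calcium in the sarcoplasmic reticulum, was at 126 and 129 CPM on day 3 and 3.19 and 2.27 CPM on day 7 (log2 fold change -5.88 ± 0.38, adjusted p = 0.000136). Acta1, skeletal muscle actin, was at 69.8 and 69.8 CPM on day 3 and 2.55 and 0.987 CPM on day 7 (log2 fold change -5.70 ± 0.36, adjusted p = 0.000131). Actg2, enteric smooth muscle actin, was at 286 and 316 CPM on day 3 and 10.8 and 8.37 CPM on day 7 (log2 fold change -5.30 ± 0.46, adjusted p = 0.000282). Each of these matrix and muscle genes kept only a small part of its day 3 level in both arms. Igfbp4, a binding protein that holds back insulin-like growth factors, was at 171 and 189 CPM on day 3 and 7.83 and 5.25 CPM on day 7 (log2 fold change -5.14 ± 0.51, adjusted p = 0.000435). Flt1, a receptor of VEGF, was at 26.6 and 27.4 CPM on day 3 and 1.18 and 0.933 CPM on day 7 (log2 fold change -5.001 ± 0.52, adjusted p = 0.000507). The summed level of the endothelial markers was 13.0 and 14.7 CPM on day 3 and 4.46 and 4.59 CPM on day 7, nearly all of it Tek, and their part in the Flt1 result was not tested. Scn7a, a sodium channel-like protein, was at 9.86 and 11.1 CPM on day 3 and 0.577 and 0.187 CPM on day 7 (log2 fold change -5.11 ± 0.41, adjusted p = 0.000225). Abca4, a lipid transporter of photoreceptors, was at 16.4 and 18.1 CPM on day 3 and 0.668 and 0.24 CPM on day 7 (log2 fold change -5.57 ± 0.40, adjusted p = 0.000165).

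Among the largest falls were also Eln, Hif3a, the unnamed locus AABR07028488.1 and Dr1. Eln, elastin, was at 702 and 632 CPM on day 3 and 5.80 and 16.5 CPM on day 7 (log2 fold change -6.18 ± 0.78, adjusted p = 0.000978), and PCL-SE kept more of it than PCL-S on day 7. Hif3a, a hypoxia-inducible factor that is also induced by glucocorticoids, was at 21.1 and 18.9 CPM on day 3 and 0.303 and 0.56 CPM on day 7 (log2 fold change -5.90 ± 0.63, adjusted p = 0.000954). AABR07028488.1 was at 5.20 and 5.49 CPM on day 3 and 0.182 and 0 CPM on day 7. Dr1, a repressor of the general transcription machinery, was at 23.8 and 25.5 CPM on day 3 and 0 and 0.347 CPM on day 7 with S7 and 0.261 and 26.5 CPM on day 3 and 25.6 and 19.0 CPM on day 7 in PCL-O and PCL-E. The day 3 library of PCL-O stood near 0 while the other 3 libraries without S7 did not, and reads of Dr1 may be shared with near-identical copies. Its fall (log2 fold change -7.60 ± 1.85, adjusted p = 0.0134) had an adjusted p of 0.0566 without the day 3 library of PCL-S, 0.0886 without the day 7 library of PCL-S and 0.0863 without that of PCL-SE. The plot of levels by library shows some of the genes described here and below in all 8 libraries.

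**Figure D2:**
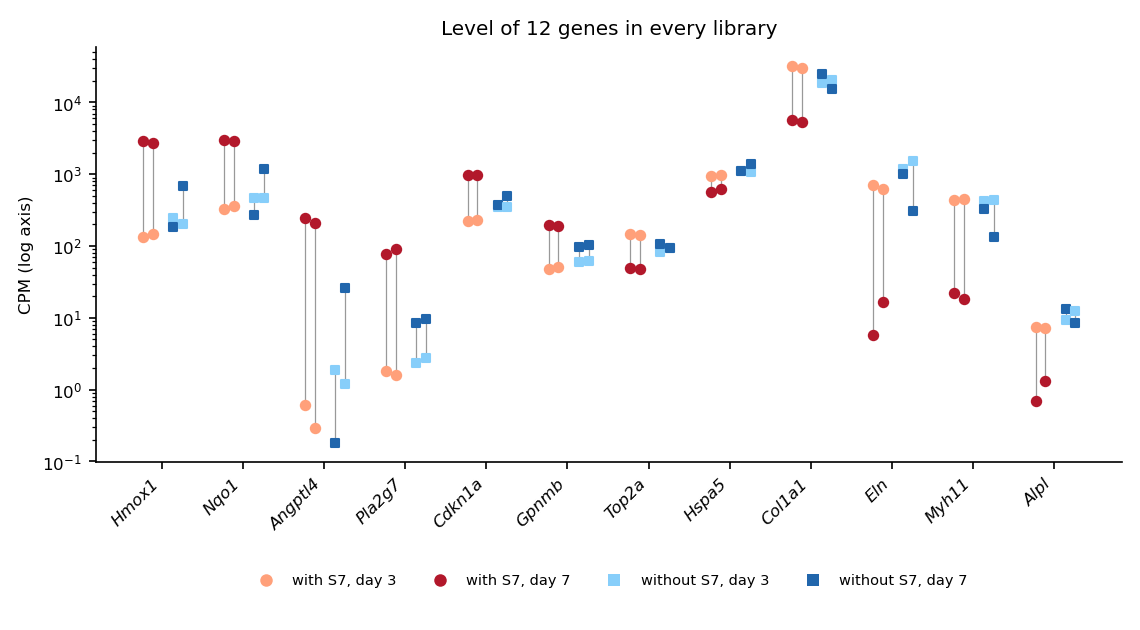
CPM on a log axis of 12 genes, with circles for PCL-S and PCL-SE (left to right) and squares for PCL-O and PCL-E, pale for day 3 and dark for day 7. A grey line joins the 2 days of an arm. The arms with S7 mostly lie close together on each day: Hmox1 goes from 132 and 149 to 2907 and 2767 CPM, and Eln from 702 and 632 to 5.80 and 16.5 CPM.

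Antioxidant genes rose together in both arms. Of 18 NRF2 targets tested, 17 rose, 0 fell and 1 was not called, with a median log2 change of 1.33 against -0.03 for all tested genes and 0.08 for the same list without S7. Hmox1, which breaks down haem to biliverdin, iron and carbon monoxide, was at 132 and 149 CPM on day 3 and 2907 and 2767 CPM on day 7 (log2 fold change 4.04 ± 0.51, adjusted p = 0.00102). Blvrb, a reductase of biliverdin and flavin, was at 23.6 and 25.4 CPM on day 3 and 79.1 and 76.1 CPM on day 7 (log2 fold change 1.36 ± 0.15, adjusted p = 0.000646). Nqo1, a quinone reductase, was at 334 and 358 CPM on day 3 and 2969 and 2904 CPM on day 7 (log2 fold change 2.79 ± 0.51, adjusted p = 0.00415). All 3 were several times higher on day 7 in each arm. Osgin1, an oxidative stress-induced growth inhibitor, was at 2.59 and 3.26 CPM on day 3 and 26.0 and 25.2 CPM on day 7 (log2 fold change 2.84 ± 0.28, adjusted p = 0.000433). Txnrd1, which reduces thioredoxin, was at 213 and 221 CPM on day 3 and 901 and 810.5 CPM on day 7 (log2 fold change 1.68 ± 0.16, adjusted p = 0.000374), and thioredoxin itself, Txn1, was at 86.8 and 88.5 CPM on day 3 and 269 and 285 CPM on day 7 (log2 fold change 1.35 ± 0.10, adjusted p = 0.000174). Both subunits of the enzyme that starts glutathione synthesis rose, Gclc (log2 fold change 1.09 ± 0.12, adjusted p = 0.000604) and Gclm (log2 fold change 0.99 ± 0.18, adjusted p = 0.004), as did Gsr, which regenerates glutathione (log2 fold change 0.87 ± 0.11, adjusted p = 0.000889).

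Taldo1, the transaldolase of the pentose phosphate pathway, was at 75.7 and 81.7 CPM on day 3 and 337 and 320.0 CPM on day 7 (log2 fold change 1.76 ± 0.16, adjusted p = 0.000328), and Tkt, transketolase, rose by a log2 change of 1.07 ± 0.13 (adjusted p = 0.000973). Slc7a11, the cystine importer, was at 26.1 and 24.2 CPM on day 3 and 31.1 and 40.0 CPM on day 7 and was not called (log2 fold change 0.17 ± 0.19, adjusted p = 0.48). The day change was higher with S7 than without in 15 of the 18 genes and lower in 0. For Gclc, which was at 239 and 239 CPM on day 3 and 635 and 619.8 CPM on day 7 with S7, PCL-O and PCL-E were at 186 and 219 CPM on day 3 and 141 and 196 CPM on day 7 (difference of the log2 changes 1.43 ± 0.17, adjusted p = 0.00284). Neither arm without S7 was higher on day 7 than on day 3. For Hmox1 they were at 245 and 201 CPM on day 3 and 182 and 687 CPM on day 7, so that PCL-E was higher on day 7, though its level stayed below that of either arm with S7.

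The group of aldo-keto reductase and aryl hydrocarbon receptor genes had 8 rises and 1 fall, that of Akr1c14, among 10 tested. Akr1b1, aldose reductase, was at 185 and 194 CPM on day 3 and 1165 and 1064 CPM on day 7 (log2 fold change 2.26 ± 0.27, adjusted p = 0.00079). Tiparp, a receptor target that adds ADP-ribose, was at 36.3 and 44.5 CPM on day 3 and 146 and 161 CPM on day 7 (log2 fold change 1.63 ± 0.25, adjusted p = 0.00216). Aldh3a1, an aldehyde dehydrogenase, was at 0.683 and 0.705 CPM on day 3 and 19.0 and 11.4 CPM on day 7 (log2 fold change 4.24 ± 0.78, adjusted p = 0.00445). Each was higher in both arms on day 7. The difference between the arms with and without S7 was called for 2 of 10. These were Akr1b1 (difference of the log2 changes 2.003 ± 0.37, adjusted p = 0.00987), with an adjusted p of 0.0508 without the day 3 library of PCL-O and 0.0538 without that of PCL-SE, and Tiparp (difference of the log2 changes 1.49 ± 0.35, adjusted p = 0.0214). Tiparp had 0.0819 without the day 3 library of PCL-O, 0.0813 without that of PCL-S, 0.0872 without that of PCL-SE, 0.0847 without the day 7 library of PCL-S and 0.0553 without that of PCL-SE. It was not called for Angptl4 (difference of the log2 changes 6.04 ± 2.31, adjusted p = 0.0936), Cyp1a1 (difference of the log2 changes 5.72 ± 2.46, adjusted p = 0.127) or Akr1b8 (difference of the log2 changes 3.93 ± 1.24, adjusted p = 0.0548). In these 3, PCL-E was also high on day 7, at 26.4, 49.3 and 119.5 CPM, and PCL-O was not, at 0.182, 0.759 and 7.37 CPM.

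Iron genes changed in both directions, with 8 of 16 tested higher and 5 lower. Fth1, the heavy chain of the iron store ferritin, was at 1068 and 1183 CPM on day 3 and 6857 and 5729 CPM on day 7 (log2 fold change 2.20 ± 0.31, adjusted p = 0.00157). Slc40a1, ferroportin, the exporter of iron, was at 5.29 and 4.26 CPM on day 3 and 31.4 and 34.9 CPM on day 7 (log2 fold change 2.46 ± 0.36, adjusted p = 0.00168). Steap3, an endosomal ferrireductase, was at 5.98 and 5.81 CPM on day 3 and 29.4 and 30.3 CPM on day 7 (log2 fold change 2.03 ± 0.13, adjusted p = 0.00013). Ncoa4, which carries ferritin to autophagy, rose less (log2 fold change 0.53 ± 0.08, adjusted p = 0.00176). Those that fell included Cp, the ferroxidase ceruloplasmin, at 37.5 and 35.5 CPM on day 3 and 7.34 and 7.04 CPM on day 7 (log2 fold change -2.65 ± 0.24, adjusted p = 0.000323), and Ireb2, which binds iron-responsive mRNA elements (log2 fold change -0.65 ± 0.11, adjusted p = 0.003). Slc39a14, an importer of zinc and iron, fell as well (log2 fold change -0.62 ± 0.08, adjusted p = 0.000867), and the other falls were those of Tfrc and Slc30a1. Mt1, a metallothionein, was at 0.781 and 0.617 CPM on day 3 and 6.25 and 5.33 CPM on day 7 (log2 fold change 2.76 ± 0.37, adjusted p = 0.00122).

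Lipid genes controlled by PPARs rose. Of 21 tested, 15 rose and 2 fell, with a median of 1.14 against 0.08 without S7. The mitochondrial fatty acid steps took part: Cpt2, which reforms acyl-CoA from acylcarnitine, was at 17.8 and 18.8 CPM on day 3 and 39.9 and 35.7 CPM on day 7 (log2 fold change 0.74 ± 0.10, adjusted p = 0.0011). Slc25a20, which carries acylcarnitine across the inner membrane, was at 31.6 and 32.9 CPM on day 3 and 71.7 and 75.5 CPM on day 7 (log2 fold change 0.88 ± 0.09, adjusted p = 0.000433). Hadha, the trifunctional protein of beta-oxidation, was at 119 and 119 CPM on day 3 and 424 and 419 CPM on day 7 (log2 fold change 1.52 ± 0.23, adjusted p = 0.00204). Pdk4, which shuts pyruvate dehydrogenase, was at 3.39 and 2.44 CPM on day 3 and 52.1 and 58.4 CPM on day 7 (log2 fold change 3.89 ± 0.57, adjusted p = 0.00176). Acot2, a mitochondrial thioesterase, was at 9.44 and 10.8 CPM on day 3 and 42.0 and 36.3 CPM on day 7 (log2 fold change 1.65 ± 0.23, adjusted p = 0.00141). Plin2, which coats lipid droplets, was at 19.7 and 23.0 CPM on day 3 and 151 and 147 CPM on day 7 (log2 fold change 2.51 ± 0.24, adjusted p = 0.00039). Fabp3, a fatty acid binding protein, was at 19.6 and 19.9 CPM on day 3 and 149 and 152 CPM on day 7 (log2 fold change 2.62 ± 0.30, adjusted p = 0.000732). The related Fabp5 went the other way, at 74.7 and 74.3 CPM on day 3 and 43.9 and 39.5 CPM on day 7 (log2 fold change -1.14 ± 0.22, adjusted p = 0.00487), and the other fall was that of Lpl, the lipase that Angptl4 inhibits. Of the receptors, Ppard was called (log2 fold change 0.64 ± 0.08, adjusted p = 0.00101) and Pparg, at 3.29 and 3.79 CPM on day 3 and 11.9 and 7.36 CPM on day 7, was not (log2 fold change 1.17 ± 0.50, adjusted p = 0.0888). Adipocyte markers did not share a direction: of 6 tested, Cebpa and Fabp4 rose and Lpl, Adrb3 and Slc2a4 fell.

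Genes of cholesterol synthesis fell or were not called, 10 of 17 lower and 0 higher. Hmgcs1, an early enzyme of the pathway, was at 195 and 198 CPM on day 3 and 97.2 and 111 CPM on day 7 (log2 fold change -1.23 ± 0.17, adjusted p = 0.00157). Both arms lost close to the same share of it. Of the later steps, Sqle (log2 fold change -0.77 ± 0.12, adjusted p = 0.0021), Cyp51 (log2 fold change -0.71 ± 0.13, adjusted p = 0.00432) and Dhcr7 (log2 fold change -0.90 ± 0.13, adjusted p = 0.00182) fell less. Without S7 the median of the list was 0.07, and the difference was called lower for 8 genes.

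Glycolysis genes rose modestly, 12 of 19 with 1 lower and a median of 0.37. Aldoa was at 500.4 and 520.4 CPM on day 3 and 1040.0 and 1022 CPM on day 7 (log2 fold change 0.71 ± 0.08, adjusted p = 0.000763). Tpi1 was at 68.9 and 67.2 CPM on day 3 and 176 and 179.7 CPM on day 7 (log2 fold change 1.08 ± 0.13, adjusted p = 0.000799) and Ldha, which makes lactate, at 586 and 615 CPM on day 3 and 1123 and 1098 CPM on day 7 (log2 fold change 0.58 ± 0.10, adjusted p = 0.00346). The fall was that of Slc2a1, the glucose transporter. The list of hypoxia targets also holds the hypoxia-inducible factors Hif1a, Epas1 and Hif3a. It had 4 higher and 5 lower of 17, near the 24.4% and 26.4% over all tested genes. Its median of 0.07 was -0.00 with the length trend removed. Hif1a, Bnip3, Ndrg1 and Kdm3a rose and Epas1, Hif3a, Vegfa, P4ha1 and P4ha2 fell. Vegfa, the endothelial growth factor, was at 114 and 115 CPM on day 3 and 66.3 and 63.7 CPM on day 7 (log2 fold change -1.12 ± 0.14, adjusted p = 0.00102), while the glycolytic targets above rose. P4ha2, a prolyl hydroxylase subunit, was at 330.1 and 331 CPM on day 3 and 195 and 168 CPM on day 7 (log2 fold change -1.17 ± 0.17, adjusted p = 0.00186).

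Genes of mitosis fell and several growth arrest genes rose. Of 29 G2/M genes tested, 27 fell and 0 rose, with a median of -1.08 against 0.23 without S7. Mki67, the proliferation antigen, was at 175 and 175 CPM on day 3 and 71.7 and 80.3 CPM on day 7 (log2 fold change -1.51 ± 0.17, adjusted p = 0.00064). Top2a, which untangles DNA before division, was at 145 and 141 CPM on day 3 and 49.9 and 47.3 CPM on day 7 (log2 fold change -1.87 ± 0.11, adjusted p = 0.000117). Cenpe, a kinetochore motor, was at 83.8 and 81.6 CPM on day 3 and 23.6 and 21.5 CPM on day 7 (log2 fold change -2.18 ± 0.10, adjusted p = 7.99e-05). Ccnb1, the mitotic cyclin, fell less, from 41.1 and 40.3 CPM on day 3 to 28.9 and 29.8 CPM on day 7 (log2 fold change -0.78 ± 0.10, adjusted p = 0.00108). Cdc20 and Aurka were the 2 members not called. The difference from the arms without S7 was called lower for 28 of 29. Genes of G1/S and replication were split, 7 higher and 10 lower of 32, near the 24.4% and 26.4% over all tested genes. Their median of -0.11 was 0.20 under total-count scaling. Within this list Ccne2, a cyclin of S phase entry, was at 29.6 and 31.3 CPM on day 3 and 9.26 and 11.3 CPM on day 7 (log2 fold change -1.88 ± 0.11, adjusted p = 0.000113). Rrm2, of nucleotide reduction, was at 91.3 and 95.1 CPM on day 3 and 63.4 and 55.0 CPM on day 7 (log2 fold change -0.96 ± 0.10, adjusted p = 0.000553). The 7 that rose were Pcna, Rpa1, Rpa2, Slbp, Ung, Cdt1 and Rfc4.

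Of 20 growth arrest and DNA damage genes, 9 rose and 4 fell. Cdkn1a, the inhibitor p21, was at 220.4 and 228 CPM on day 3 and 977 and 968 CPM on day 7 (log2 fold change 1.81 ± 0.12, adjusted p = 0.000131). Mdm2, a ubiquitin ligase, was at 107 and 114 CPM on day 3 and 491 and 492 CPM on day 7 (log2 fold change 1.85 ± 0.13, adjusted p = 0.000168). Both were several-fold higher in each arm. Phlda3, an inhibitor of AKT, was at 174 and 173 CPM on day 3 and 545 and 523 CPM on day 7 (log2 fold change 1.31 ± 0.09, adjusted p = 0.000162). Gadd45a, of DNA damage response, was at 37.5 and 44.9 CPM on day 3 and 121 and 105 CPM on day 7 (log2 fold change 1.15 ± 0.13, adjusted p = 0.000646). Bax, which opens mitochondria in apoptosis, was at 64.4 and 62.0 CPM on day 3 and 130.5 and 124 CPM on day 7 (log2 fold change 0.70 ± 0.07, adjusted p = 0.000464). The 4 that fell were Cdkn1b, Btg2, Sesn1 and Sesn2, and Cdkn2a, at 13.3 and 13.7 CPM on day 3 and 17.9 and 20.1 CPM on day 7, was not called. The change was higher with S7 than without for 9 of 20 and lower for 0.

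Collagen genes fell. None of 26 fibrillar collagen and processing genes rose and 23 fell, with a median of -1.29, and 14 of 14 other collagens fell, with a median of -2.40. The medians of the same lists without S7 were 0.11 and -0.02. The type I chains that make up bone, Col1a1 and Col1a2, were at 32384 and 29957 CPM on day 3 and 5659 and 5273 CPM on day 7 (log2 fold change -2.82 ± 0.21, adjusted p = 0.00018) and at 11115 and 10113 CPM on day 3 and 1961 and 2011 CPM on day 7 (log2 fold change -2.72 ± 0.19, adjusted p = 0.000162). The 2 chains fell by close to the same factor in each arm. Col3a1, of soft connective tissue, was at 10454 and 10024 CPM on day 3 and 2233 and 2082 CPM on day 7 (log2 fold change -2.55 ± 0.14, adjusted p = 0.000113). Col5a1, which nucleates type I fibrils, was at 3618 and 3268 CPM on day 3 and 814 and 801 CPM on day 7 (log2 fold change -2.40 ± 0.10, adjusted p = 7.99e-05). Among the others, Col12a1, on the fibril surface, was at 7607 and 6954 CPM on day 3 and 939 and 1119 CPM on day 7 (log2 fold change -3.11 ± 0.30, adjusted p = 0.000391). Col14a1, of the same class, was at 198 and 203 CPM on day 3 and 19.6 and 17.1 CPM on day 7 (log2 fold change -3.76 ± 0.10, adjusted p = 2.72e-05). Col4a1, of basement membranes, was at 5233 and 4926 CPM on day 3 and 960.1 and 822 CPM on day 7 (log2 fold change -2.82 ± 0.19, adjusted p = 0.00016). No member of that list was higher on day 7 in either arm.

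The enzymes that fold and crosslink collagen had smaller log2 changes than Col1a1 and Col1a2, although that contrast was not tested. Serpinh1, the collagen chaperone HSP47, was at 2465 and 2505 CPM on day 3 and 1414 and 1329 CPM on day 7 (log2 fold change -1.16 ± 0.08, adjusted p = 0.000164). Plod2, a lysyl hydroxylase, was at 761 and 783 CPM on day 3 and 440.2 and 434 CPM on day 7 (log2 fold change -1.13 ± 0.12, adjusted p = 0.000547). P4ha1, a prolyl hydroxylase subunit, was at 285 and 303 CPM on day 3 and 193 and 192 CPM on day 7 (log2 fold change -0.92 ± 0.10, adjusted p = 0.0006). Loxl2, a crosslinking amine oxidase, was at 503 and 485 CPM on day 3 and 239.6 and 241 CPM on day 7 (log2 fold change -1.35 ± 0.09, adjusted p = 0.000162). Bmp1, which cuts the procollagen tail, was at 222 and 215 CPM on day 3 and 74.9 and 62.6 CPM on day 7 (log2 fold change -1.98 ± 0.15, adjusted p = 0.000179). P4ha3, at 198 and 199 CPM on day 3 and 312 and 319.6 CPM on day 7, was not called (log2 fold change 0.37 ± 0.13, adjusted p = 0.0554). The difference from the arms without S7 was called lower for 23 of 26 fibrillar collagen and processing genes and for 13 of 14 others. For Col1a1, PCL-O and PCL-E were at 18908 and 20401 CPM on day 3 and 24758 and 15347 CPM on day 7 (difference of the log2 changes -2.76 ± 0.28, adjusted p = 0.00206), so PCL-O was higher and PCL-E lower on day 7.

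Elastic fibre and basement membrane genes fell too. Of 19 elastic fibre genes 14 fell and 0 rose. Fbn1, the fibrillin of microfibrils, was at 2373 and 2218 CPM on day 3 and 326 and 297 CPM on day 7 (log2 fold change -3.19 ± 0.24, adjusted p = 0.000185). Mfap5, a microfibril protein, was at 35.5 and 40.2 CPM on day 3 and 3.13 and 3.01 CPM on day 7 (log2 fold change -3.93 ± 0.31, adjusted p = 0.000208). Ltbp2, a latent TGF-beta binding protein, was at 2864 and 2779 CPM on day 3 and 844 and 811 CPM on day 7 (log2 fold change -2.08 ± 0.17, adjusted p = 0.000247). Of 19 laminin and basement membrane genes 17 fell and 1 rose, with a median of -2.36 against -0.37 without S7. Lama2 was at 201 and 188 CPM on day 3 and 14.4 and 12.7 CPM on day 7 (log2 fold change -4.16 ± 0.25, adjusted p = 0.000117). Nid1, which links laminin to collagen IV, was at 2698 and 2672 CPM on day 3 and 668 and 588 CPM on day 7 (log2 fold change -2.41 ± 0.13, adjusted p = 0.000113). Agrn, agrin, was at 83.4 and 75.9 CPM on day 3 and 21.0 and 18.2 CPM on day 7 (log2 fold change -2.33 ± 0.19, adjusted p = 0.000241). The gene that rose was Smoc2, a calcium-binding matrix protein, at 46.4 and 49.8 CPM on day 3 and 85.2 and 132 CPM on day 7 (log2 fold change 0.84 ± 0.17, adjusted p = 0.00573), with an adjusted p of 0.0658 without the day 3 library of PCL-SE. Of 12 small leucine-rich proteoglycans 10 fell and 0 rose. Bgn, biglycan, was at 3290.0 and 3282 CPM on day 3 and 1492 and 1392 CPM on day 7 (log2 fold change -1.50 ± 0.17, adjusted p = 0.000617). Prelp, which anchors basement membrane, was at 97.4 and 98.2 CPM on day 3 and 18.9 and 17.2 CPM on day 7 (log2 fold change -2.74 ± 0.30, adjusted p = 0.00058).

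Matrix proteases were mixed, 5 higher and 12 lower of 22. Timp3, a matrix-bound protease inhibitor, was at 60.8 and 59.1 CPM on day 3 and 7.10 and 5.73 CPM on day 7 (log2 fold change -3.55 ± 0.26, adjusted p = 0.00017). Adamts5, an aggrecanase, was at 63.0 and 67.8 CPM on day 3 and 10.4 and 7.89 CPM on day 7 (log2 fold change -3.14 ± 0.18, adjusted p = 0.000113). Mmp14, the membrane collagenase, was at 320.5 and 301 CPM on day 3 and 231 and 236 CPM on day 7 (log2 fold change -0.72 ± 0.10, adjusted p = 0.00128). Mmp3, stromelysin, rose to at least 5 CPM, at 1.56 and 1.61 CPM on day 3 and 8.07 and 12.7 CPM on day 7 (log2 fold change 2.38 ± 0.28, adjusted p = 0.000739). Adamts1 was at 365 and 402 CPM on day 3 and 789.8 and 772 CPM on day 7 (log2 fold change 0.72 ± 0.12, adjusted p = 0.00335). The other proteases that rose were Mmp10, Mmp13 and Mmp19. Mmp2, a gelatinase, at 754 and 744 CPM on day 3 and 902 and 880.4 CPM on day 7, was not called, and under total-count scaling it was called higher (log2 fold change 0.25).

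Contractile genes fell. Of 25 smooth muscle and myofibroblast genes tested 23 fell and 0 rose, with a median of -1.44 against -0.48 without S7. Myh11, smooth muscle myosin, was at 445 and 446 CPM on day 3 and 22.6 and 18.5 CPM on day 7 (log2 fold change -4.77 ± 0.37, adjusted p = 0.000201). Mylk, the kinase that activates myosin, was at 76.3 and 70.6 CPM on day 3 and 8.83 and 9.39 CPM on day 7 (log2 fold change -3.31 ± 0.22, adjusted p = 0.000134). Acta2, smooth muscle actin, was at 6047 and 6082 CPM on day 3 and 2102 and 1868 CPM on day 7 (log2 fold change -1.92 ± 0.11, adjusted p = 0.000113). Cnn1, calponin, was at 415 and 424 CPM on day 3 and 125 and 99.6 CPM on day 7 (log2 fold change -2.22 ± 0.18, adjusted p = 0.000252). Tagln, transgelin, was at 3703 and 3809 CPM on day 3 and 2545 and 2269 CPM on day 7 (log2 fold change -0.95 ± 0.10, adjusted p = 0.000464). The regulators Myocd (log2 fold change -0.98 ± 0.10, adjusted p = 0.00047) and Srf (log2 fold change -0.53 ± 0.08, adjusted p = 0.00229) fell less than Myh11. Mrtfa, a co-activator of Srf, was not called, at 65.7 and 66.7 CPM on day 3 and 68.9 and 71.6 CPM on day 7. In PCL-O and PCL-E, Myh11 was at 431 and 436 CPM on day 3 and 325 and 134 CPM on day 7 (difference of the log2 changes -3.71 ± 0.46, adjusted p = 0.00321). Of the 15 tested striated muscle genes 3 reached 5 CPM with S7, and 12 fell.

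Integrin and focal adhesion genes fell in 24 of 27, with 1 rise. Itgb1, the partner of most collagen and fibronectin receptors, was at 4139 and 4301 CPM on day 3 and 1841 and 1718 CPM on day 7 (log2 fold change -1.55 ± 0.09, adjusted p = 0.000113). Itga8, a receptor of nephronectin, was at 674 and 667 CPM on day 3 and 98.0 and 108 CPM on day 7 (log2 fold change -3.004 ± 0.15, adjusted p = 0.000113). Itga1, a collagen receptor, was at 126 and 123 CPM on day 3 and 20.3 and 26.6 CPM on day 7 (log2 fold change -2.71 ± 0.21, adjusted p = 0.000215). Tln1, talin, which ties integrins to actin, was at 1279 and 1233 CPM on day 3 and 550.4 and 543 CPM on day 7 (log2 fold change -1.50 ± 0.14, adjusted p = 0.00035). The gene that rose was Pxn, paxillin.

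Bone genes went both ways. Of 18 bone matrix and mineralisation genes 6 rose and 11 fell. Alpl, tissue-nonspecific alkaline phosphatase, was at 7.47 and 7.25 CPM on day 3 and 0.698 and 1.33 CPM on day 7 (log2 fold change -3.15 ± 0.37, adjusted p = 0.000799), and PCL-O and PCL-E were at 9.39 and 12.6 CPM on day 3 and 13.2 and 8.60 CPM on day 7 (difference of the log2 changes -3.09 ± 0.49, adjusted p = 0.00649). Sparc, osteonectin, was at 8896 and 8932 CPM on day 3 and 4187 and 3735 CPM on day 7 (log2 fold change -1.48 ± 0.09, adjusted p = 0.000114). Postn, periostin, was at 2815 and 2721 CPM on day 3 and 1349 and 1418 CPM on day 7 (log2 fold change -1.30 ± 0.19, adjusted p = 0.00168). Mepe, a matrix phosphoglycoprotein, was at 5.73 and 5.37 CPM on day 3 and 1.09 and 1.12 CPM on day 7 (log2 fold change -2.62 ± 0.29, adjusted p = 0.000639). All 4 were lower in both arms on day 7. Phospho1, a phosphatase of matrix vesicles, went the other way at 1.66 and 1.15 CPM on day 3 and 9.65 and 8.56 CPM on day 7 (log2 fold change 2.38 ± 0.31, adjusted p = 0.00116), as did Slc20a1, a phosphate importer, at 181 and 189.8 CPM on day 3 and 339 and 378 CPM on day 7 (log2 fold change 0.64 ± 0.09, adjusted p = 0.00141). Spp1, osteopontin, was at 869.9 and 916 CPM on day 3 and 1679 and 2795 CPM on day 7 (log2 fold change 1.01 ± 0.24, adjusted p = 0.0131), higher in PCL-SE than in PCL-S on day 7. Its adjusted p was 0.0746 without the day 3 library of PCL-S, 0.0894 without that of PCL-SE and 0.0627 without the day 7 library of PCL-SE. The other genes that rose were Slc20a2, a further phosphate importer, Enpp1, which makes the mineral inhibitor pyrophosphate, and Mgp, matrix Gla protein, another inhibitor.

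Most osteoblast transcription factors were not called: 3 of 15 rose and 2 fell, beside 24.4% higher and 26.4% lower over all tested genes. Runx2, the master regulator, was at 31.6 and 27.8 CPM on day 3 and 30.2 and 35.2 CPM on day 7 (log2 fold change -0.18 ± 0.13, adjusted p = 0.286), with overlapping days. Msx2, a homeobox factor, was at 46.8 and 49.4 CPM on day 3 and 147 and 163 CPM on day 7 (log2 fold change 1.38 ± 0.23, adjusted p = 0.00291). Tcf7, of Wnt signalling, was at 2.66 and 2.26 CPM on day 3 and 7.04 and 8.91 CPM on day 7 (log2 fold change 1.36 ± 0.24, adjusted p = 0.00392). Twist1 also rose, and Zfp521 was among those that fell. Cartilage genes fell in 12 of 16, with 1 rise, that of Hapln1. Cilp, a cartilage matrix protein, was at 23.0 and 19.6 CPM on day 3 and 0.91 and 1.12 CPM on day 7 (log2 fold change -4.70 ± 0.47, adjusted p = 0.000452). Sox6, a chondrocyte factor, was at 10.2 and 11.1 CPM on day 3 and 6.19 and 6.19 CPM on day 7 (log2 fold change -1.09 ± 0.16, adjusted p = 0.00189). Sox9, the main chondrocyte factor, was at 17.3 and 18.7 CPM on day 3 and 18.5 and 20.7 CPM on day 7 and was not called. Of 9 factors through which stromal cells act on osteoclasts, 4 fell and 0 rose. Tnfrsf11b, osteoprotegerin, the decoy that blocks RANKL, was at 308 and 322 CPM on day 3 and 47.8 and 49.9 CPM on day 7 (log2 fold change -2.996 ± 0.15, adjusted p = 0.000113). Vdr, the vitamin D receptor, was at 33.8 and 31.1 CPM on day 3 and 7.68 and 8.69 CPM on day 7 (log2 fold change -2.28 ± 0.20, adjusted p = 0.000315). The others that fell were Tnfrsf11a and Efnb2.

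Chaperones of the endoplasmic reticulum fell, 14 of 20 with 0 higher and a median of -0.66 against 0.11 without S7. Hsp90b1, which folds secreted proteins, was at 1135 and 1195 CPM on day 3 and 409.8 and 425 CPM on day 7 (log2 fold change -1.79 ± 0.09, adjusted p = 0.000104). Hspa5, the chaperone BiP, was at 945 and 981 CPM on day 3 and 574 and 614 CPM on day 7 (log2 fold change -1.003 ± 0.10, adjusted p = 0.000377). Calr, calreticulin, was at 1308 and 1363 CPM on day 3 and 714 and 671 CPM on day 7 (log2 fold change -1.25 ± 0.09, adjusted p = 0.000164). The disulphide isomerases Pdia4 (log2 fold change -1.54 ± 0.08, adjusted p = 0.000113) and Pdia6 (log2 fold change -1.46 ± 0.09, adjusted p = 0.000116) fell as well. Herpud1, induced in the unfolded protein response, was not called, at 103 and 101 CPM on day 3 and 123 and 124 CPM on day 7. The difference from the arms without S7 was called lower for 14 genes.

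The ATF4 list had 3 rises and 10 falls among 20 tested. Gdf15, a secreted stress cytokine, was at 3.17 and 3.61 CPM on day 3 and 49.2 and 37.2 CPM on day 7 (log2 fold change 3.38 ± 0.29, adjusted p = 0.000269). Ddit3, the factor CHOP, was at 21.0 and 17.6 CPM on day 3 and 59.0 and 58.0 CPM on day 7 (log2 fold change 1.29 ± 0.11, adjusted p = 0.000267). Slc7a5, an importer of large amino acids, fell from 364 and 366 CPM on day 3 to 169.9 and 171 CPM on day 7 (log2 fold change -1.41 ± 0.08, adjusted p = 0.000113), and Vldlr, a lipoprotein receptor, from 265 and 260.2 CPM on day 3 to 46.6 and 50.1 CPM on day 7 (log2 fold change -2.75 ± 0.12, adjusted p = 7.99e-05). Atf4 itself was at 336 and 324 CPM on day 3 and 415 and 396 CPM on day 7 and was not called. The third gene that rose was Slc3a2, the heavy chain that partners Slc7a5. Under total-count scaling the falls numbered 4. Of 17 genes tested in the list of cytosolic heat shock chaperones 8 rose and 2, Hspa1a and Hspb1, fell. Bag3, a co-chaperone of selective autophagy, was at 71.7 and 70.6 CPM on day 3 and 198 and 202 CPM on day 7 (log2 fold change 1.19 ± 0.08, adjusted p = 0.00013). Hspd1, or HSP60, a chaperone of mitochondria and not of the cytosol, was at 261 and 281 CPM on day 3 and 521 and 566 CPM on day 7 (log2 fold change 0.70 ± 0.12, adjusted p = 0.00304).

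Proteasome and respiratory chain genes rose by small and even amounts. Of 30 proteasome subunits 28 rose and 0 fell, with a median of 0.58 against 0.01 without S7. Psmb5, the chymotrypsin-like site, was at 79.1 and 77.1 CPM on day 3 and 158 and 155 CPM on day 7 (log2 fold change 0.69 ± 0.07, adjusted p = 0.000567). Psmb7, the trypsin-like site, was at 73.2 and 82.7 CPM on day 3 and 186 and 179 CPM on day 7 (log2 fold change 0.93 ± 0.09, adjusted p = 0.00045). The subunits not called were Psmd1 and Psma4. Of 28 oxidative phosphorylation genes 25 rose and 0 fell. Cyc1, cytochrome c1, was at 67.2 and 72.2 CPM on day 3 and 168 and 163 CPM on day 7 (log2 fold change 0.95 ± 0.12, adjusted p = 0.000926). Sdhb, of complex II, was at 50.5 and 55.8 CPM on day 3 and 123 and 115 CPM on day 7 (log2 fold change 0.86 ± 0.08, adjusted p = 0.00043). Atp5f1b, of the ATP synthase, was at 659.9 and 688 CPM on day 3 and 1241 and 1235 CPM on day 7 (log2 fold change 0.57 ± 0.10, adjusted p = 0.0032). The day change was higher with S7 than without for 25 proteasome and 23 respiratory genes. Ribosomal protein genes rose in 23 of 31, with 0 lower. Rpl18 was at 219 and 223 CPM on day 3 and 546 and 536 CPM on day 7 (log2 fold change 0.99 ± 0.09, adjusted p = 0.000328). Rps3 was at 394 and 412 CPM on day 3 and 879 and 879.9 CPM on day 7 (log2 fold change 0.82 ± 0.10, adjusted p = 0.000852), though many ribosomal genes have near-identical copies that can share reads.

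These 3 groups are short genes and some of the matrix groups are long ones. Median lengths were 709 bases for the ribosomal list, 1188 for oxidative phosphorylation and 1471 for the proteasome, against 5427 for the other collagens and 6072 for laminins and basement membrane. The fibrillar collagen list had 3642 and the small leucine-rich proteoglycans 2572, beside 2309 for all tested genes. In the shortest of 8 length bins, 150 to 1194 bases, the median log2 change was 0.44 and 56.2% were called higher. In the longest, 4985 to 25242 bases, it was -0.40 and 53.4% were called lower. Without S7 the medians of these bins were 0.03 and -0.09. With the trend on length removed from each library, 26.8% of 15204 genes were called higher and 25.5% lower. Then 26 of 30 proteasome genes and 22 of 28 respiratory genes were called higher, with medians of 0.45 and 0.38. Of 30 ribosomal genes with a length 11 were higher and 2 lower, with a median of 0.18. The other collagens had 14 of 14 lower and the laminin list 16 of the 18 with a length. The plot of day change by gene length shows the trend in each arm.

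**Figure D3:**
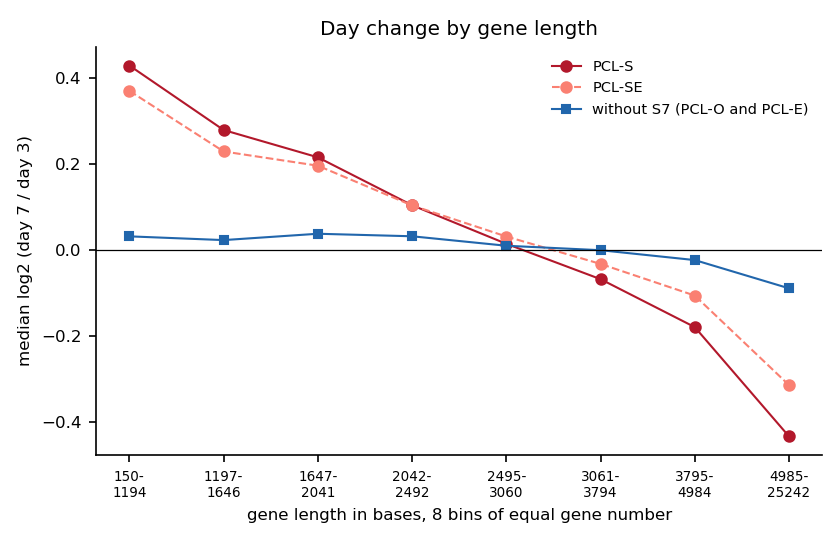
Median log2 ratio of day 7 to day 3 (y axis) in 8 bins of gene length in bases (x axis) over 10437 genes, for PCL-S and PCL-SE separately and for the fit without S7. Both arms with S7 fall from above 0.3 in the shortest bin to below -0.3 in the longest, and the line without S7 stays within 0.1 of 0.

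Lysosome and autophagy genes rose. Of 28 lysosomal genes 18 rose and 4 fell, and of 20 autophagy genes 11 rose and 3 fell. The falls included those of Ctsk, Gusb and Psap in the lysosome and were those of Becn1, Wipi1 and Tax1bp1 in autophagy. Gpnmb, a lysosomal glycoprotein, was at 48.6 and 51.0 CPM on day 3 and 194 and 192 CPM on day 7 (log2 fold change 1.65 ± 0.07, adjusted p = 8.29e-05). Atp6v1b2, of the proton pump, was at 42.4 and 44.2 CPM on day 3 and 171 and 169.5 CPM on day 7 (log2 fold change 1.67 ± 0.10, adjusted p = 0.000114). Ctsb, a cathepsin, was at 450.2 and 438 CPM on day 3 and 931 and 924 CPM on day 7 (log2 fold change 0.76 ± 0.08, adjusted p = 0.000579). Ctsk, the collagen-degrading cathepsin, fell from 74.4 and 77.2 CPM on day 3 to 40.3 and 42.4 CPM on day 7 (log2 fold change -1.18 ± 0.07, adjusted p = 0.000121), while PCL-O and PCL-E were at 49.8 and 53.4 CPM on day 3 and 90.5 and 107 CPM on day 7 (difference of the log2 changes -2.05 ± 0.10, adjusted p = 0.000821). Sqstm1, the autophagy receptor p62 and also an NRF2 target, was at 328 and 331 CPM on day 3 and 1577 and 1529 CPM on day 7 (log2 fold change 1.93 ± 0.15, adjusted p = 0.000194). Gabarapl1, which tags autophagosomes, was at 54.6 and 57.9 CPM on day 3 and 206 and 181 CPM on day 7 (log2 fold change 1.47 ± 0.11, adjusted p = 0.000171). The regulators Tfeb and Tfe3 were not called, at 5.59 and 5.70 CPM on day 3 and 8.53 and 7.79 CPM on day 7 and at 23.6 and 24.2 CPM on day 3 and 30.9 and 28.7 CPM on day 7.

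For the growth factor pathways, the shares over all tested genes were 24.4% higher and 26.4% lower. In the TGF-beta axis 4 of 18 rose and 9 fell. The ligands Tgfb2, at 422 and 418 CPM on day 3 and 238 and 226 CPM on day 7 (log2 fold change -1.16 ± 0.12, adjusted p = 0.000526), and Tgfb3 (log2 fold change -1.35 ± 0.13, adjusted p = 0.000412) fell, and Smad3, which carries the signal to the nucleus, rose (log2 fold change 0.61 ± 0.10, adjusted p = 0.00232). The other rises were those of Tgfb1, Tgfbi and Tgfbr3. Nox4, an oxidase induced by the pathway, was at 47.0 and 44.2 CPM on day 3 and 10.9 and 13.2 CPM on day 7 (log2 fold change -2.22 ± 0.20, adjusted p = 0.000323). In the BMP axis 4 of 21 rose and 7 fell, not far from these shares, with a median of -0.13 that was 0.17 under total-count scaling. Bmp2, an osteogenic ligand, was at 6.83 and 6.20 CPM on day 3 and 24.3 and 19.5 CPM on day 7 (log2 fold change 1.44 ± 0.24, adjusted p = 0.00282). Grem1, a secreted antagonist, was at 272 and 292 CPM on day 3 and 1688 and 1671 CPM on day 7 (log2 fold change 2.27 ± 0.21, adjusted p = 0.000346). Bmp6, another ligand, was at 57.8 and 56.2 CPM on day 3 and 22.7 and 18.4 CPM on day 7 (log2 fold change -1.79 ± 0.25, adjusted p = 0.00141). Bmpr1a, a receptor, was at 156 and 156 CPM on day 3 and 79.9 and 88.2 CPM on day 7 (log2 fold change -1.20 ± 0.12, adjusted p = 0.000471). The target Id3 also rose.

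In the Wnt axis 6 of 25 rose and 7 fell, near the 24.4% and 26.4% over all tested genes. The median of -0.24 was 0.07 under total-count scaling and 0.07 with the length trend removed. Axin2, a feedback target, was at 4.61 and 3.64 CPM on day 3 and 11.1 and 11.8 CPM on day 7 (log2 fold change 1.17 ± 0.17, adjusted p = 0.0016). Rspo2, which enhances Wnt signals, was at 7.47 and 7.05 CPM on day 3 and 1.27 and 1.31 CPM on day 7 (log2 fold change -2.79 ± 0.28, adjusted p = 0.000433). Fzd4, a receptor, was at 51.8 and 49.4 CPM on day 3 and 21.2 and 16.3 CPM on day 7 (log2 fold change -1.75 ± 0.13, adjusted p = 0.000168). In the Notch axis 8 of 11 fell and 1 rose. Notch3 was at 12.5 and 13.9 CPM on day 3 and 2.12 and 1.01 CPM on day 7 (log2 fold change -3.40 ± 0.34, adjusted p = 0.000449), the ligand Jag1 at 188 and 178 CPM on day 3 and 72.6 and 75.9 CPM on day 7 (log2 fold change -1.60 ± 0.17, adjusted p = 0.000505), and the target Hey2 at 10.9 and 11.3 CPM on day 3 and 1.67 and 1.09 CPM on day 7 (log2 fold change -3.33 ± 0.24, adjusted p = 0.000172). Receptor, ligand and target were thus all lower on day 7. The gene that rose was Hes1, another target. In the IGF axis 9 of 14 fell and 0 rose. Igfbp5, a binding protein, was at 23.2 and 23.0 CPM on day 3 and 1.00 and 1.87 CPM on day 7 (log2 fold change -4.28 ± 0.71, adjusted p = 0.00295), the ligand Igf2 at 15.6 and 14.5 CPM on day 3 and 1.88 and 1.04 CPM on day 7 (log2 fold change -3.71 ± 0.25, adjusted p = 0.000154). Igf1r, the receptor, was at 132 and 122 CPM on day 3 and 166 and 164 CPM on day 7, was not called. The list of YAP and TAZ targets also holds Yap1 itself and Tead partners. It had 3 rises and 8 falls among 19, with a median of -0.28 that was 0.03 under total-count scaling. Ankrd1, a mechanical target, was at 57.5 and 68.1 CPM on day 3 and 13.3 and 7.28 CPM on day 7 (log2 fold change -2.89 ± 0.38, adjusted p = 0.00116). Tead4, a partner of YAP, was at 19.9 and 20.4 CPM on day 3 and 7.43 and 8.77 CPM on day 7 (log2 fold change -1.62 ± 0.19, adjusted p = 0.000703). The genes that rose were Yap1, Tead2 and Nuak2.

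Secreted immune factors rose in part, 9 of 19 chemokine and cytokine genes higher and 2, Cxcl12 and Cx3cl1, lower. Ccl2, which draws monocytes, was at 7.39 and 8.48 CPM on day 3 and 84.3 and 89.6 CPM on day 7 (log2 fold change 3.17 ± 0.62, adjusted p = 0.00564). Ccl7, a related chemokine, was at 7.37 and 6.37 CPM on day 3 and 86.0 and 80.5 CPM on day 7 (log2 fold change 3.29 ± 0.73, adjusted p = 0.00929). Lif, a cytokine of the IL-6 family, was at 1.61 and 1.73 CPM on day 3 and 10.8 and 9.95 CPM on day 7 (log2 fold change 2.33 ± 0.21, adjusted p = 0.000323). The adjusted p-values of Ccl2 and Ccl7 were 0.0568 and 0.0828 without the day 3 library of PCL-SE, and 0.0537 and 0.110 without the day 7 library of PCL-S. The macrophage markers other than Cd14 were under 1 CPM on both days, and Cd14 was not called at 15.6 and 17.1 CPM on day 3 and 18.9 and 17.9 CPM on day 7. Without S7 the median of the list was 0.74, above the 0.42 with S7, and the difference was higher for 2 and lower for 3 genes. Il6, at 2.68 and 3.64 CPM on day 3 and 2.34 and 2.48 CPM on day 7, stayed under 5 CPM. Of 16 interferon-stimulated genes 4 rose and 3 fell, beside 24.4% higher and 26.4% lower over all tested genes. Tap1, of antigen loading, was at 16.8 and 15.6 CPM on day 3 and 43.5 and 38.4 CPM on day 7 (log2 fold change 1.03 ± 0.17, adjusted p = 0.00279). Ifit2 was at 27.5 and 28.9 CPM on day 3 and 14.1 and 13.7 CPM on day 7 (log2 fold change -1.33 ± 0.12, adjusted p = 0.000339). Irf7, Usp18 and Psmb8 also rose, and Stat2 and Mx2 also fell. Complement genes fell in 8 of 13, with a rise in C2, C1r being at 71.9 and 68.8 CPM on day 3 and 22.6 and 21.9 CPM on day 7 (log2 fold change -1.97 ± 0.12, adjusted p = 0.00013) and C1s at 5.61 and 5.72 CPM on day 3 and 0.728 and 0.613 CPM on day 7 (log2 fold change -3.39 ± 0.37, adjusted p = 0.000579).

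Genes induced by glucocorticoids, which osteogenic medium often contains, had 6 rises and 7 falls among 17, with a median of -0.24 that was 0.07 under total-count scaling. Sgk1, a kinase, was at 113 and 145 CPM on day 3 and 621 and 592 CPM on day 7 (log2 fold change 1.95 ± 0.17, adjusted p = 0.000317). Crispld2, a secreted protein, was at 736 and 729 CPM on day 3 and 192 and 222 CPM on day 7 (log2 fold change -2.14 ± 0.22, adjusted p = 0.000517). Tsc22d3, the factor GILZ, was at 268 and 262 CPM on day 3 and 273 and 266 CPM on day 7 and was not called. Of 22 immediate early genes 5 rose and 7 fell, near the 24.4% higher and 26.4% lower over all tested genes. Their median of -0.22 was 0.08 under total-count scaling. Jun was at 115 and 135 CPM on day 3 and 265 and 245 CPM on day 7 (log2 fold change 0.72 ± 0.13, adjusted p = 0.004) and Nr4a1, a nuclear receptor, at 33.6 and 52.5 CPM on day 3 and 16.7 and 16.9 CPM on day 7 (log2 fold change -1.67 ± 0.27, adjusted p = 0.00271). Fosl1, Ier3, Nr4a3 and Myc also rose. Of 17 clock genes 4 rose and 6 fell, not far from the shares over all tested genes. Per2, which represses the clock, was at 21.9 and 22.7 CPM on day 3 and 9.44 and 10.8 CPM on day 7 (log2 fold change -1.45 ± 0.11, adjusted p = 0.00022). Nr1d1, REV-ERB alpha, was at 24.6 and 29.6 CPM on day 3 and 60.6 and 80.7 CPM on day 7 (log2 fold change 1.07 ± 0.16, adjusted p = 0.00183). Npas2, Dbp and Bhlhe41 also rose, and the hour of harvest was not given in the sources used here. Of 11 purine genes 2 rose and 3 fell, also not far from those shares. Their median of -0.15 was 0.15 under total-count scaling. Aprt, of adenine salvage, was at 93.9 and 96.7 CPM on day 3 and 178 and 181 CPM on day 7 (log2 fold change 0.61 ± 0.09, adjusted p = 0.00157). Hprt1 also rose, and Nt5e, Nt5c2 and Adk fell.

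Stromal surface markers fell in 11 of 16 and rose in 2. Nt5e, CD73, which makes adenosine, was at 17.4 and 16.6 CPM on day 3 and 1.91 and 2.32 CPM on day 7 (log2 fold change -3.31 ± 0.28, adjusted p = 0.000259). Mcam, CD146, was at 127 and 130.4 CPM on day 3 and 18.5 and 16.3 CPM on day 7 (log2 fold change -3.20 ± 0.18, adjusted p = 0.000113). Thy1, CD90, was at 838 and 858 CPM on day 3 and 418 and 384 CPM on day 7 (log2 fold change -1.38 ± 0.12, adjusted p = 0.000278). All 3 were lower in both arms on day 7. The genes that rose were Cd44, the hyaluronan receptor, and Pdgfra. Pdgfrb, at 552 and 546 CPM on day 3 and 498 and 567 CPM on day 7, was not called (log2 fold change -0.35 ± 0.23, adjusted p = 0.25). The plot of called shares by list sets the larger groups beside the background.

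**Figure D4:**
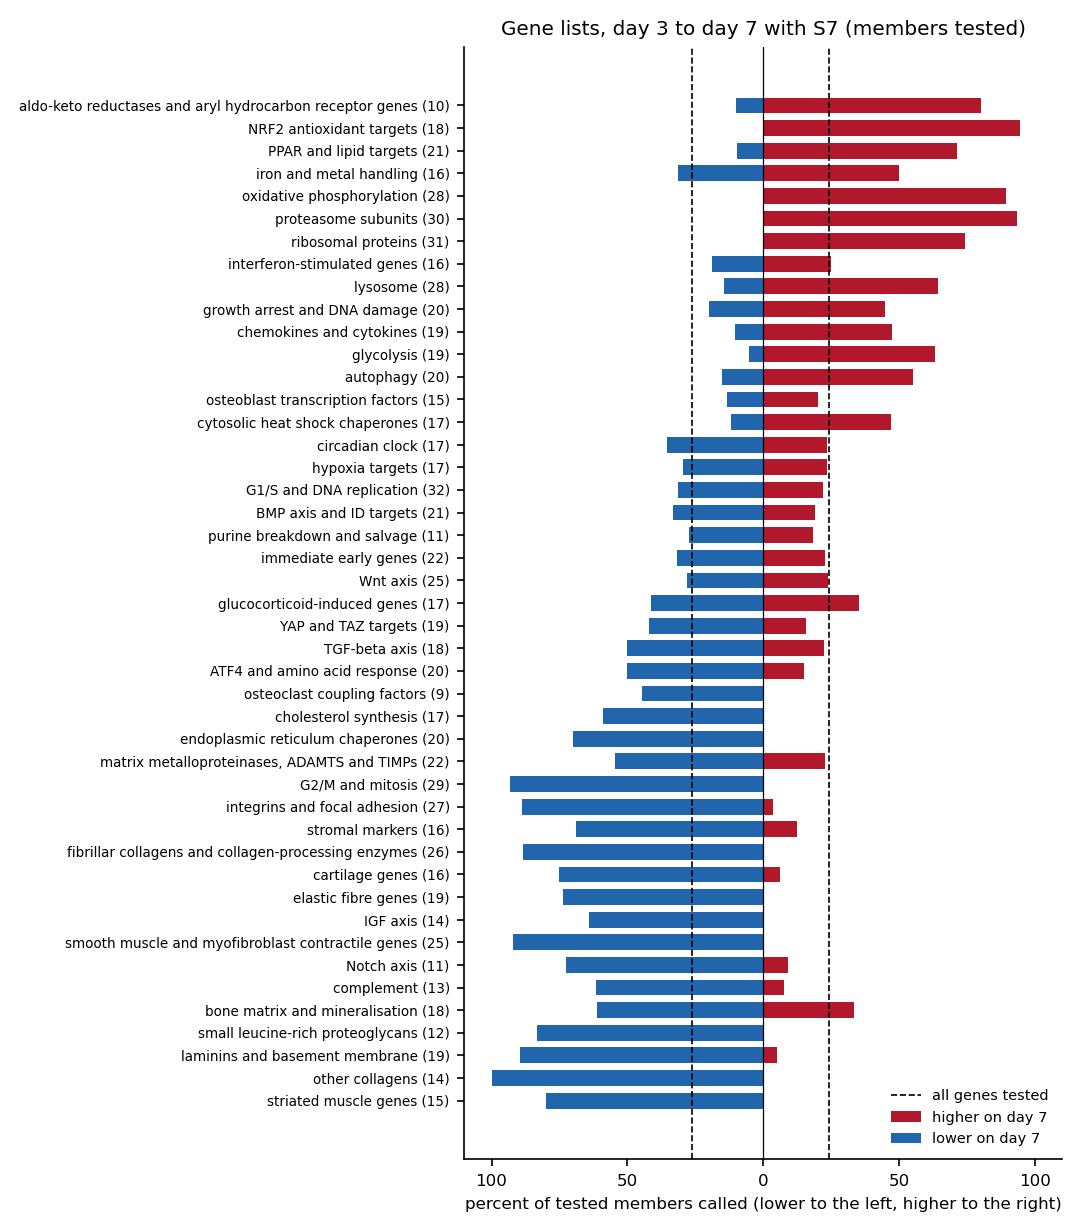
Percent of the tested members of each gene list called higher (right) or lower (left) on day 7 with S7, for lists with 9 or more tested members, whose number is in brackets, ordered by median change. Dashed lines give the shares over all 15942 tested genes, 24.4% higher and 26.4% lower. The aldo-keto reductase list and NRF2 targets stand at the top, and striated muscle genes, other collagens and laminins at the bottom.

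The courses with and without S7 were compared directly. Of the 6335 genes of at least 5 CPM called with S7, 3670 (57.9%) also had a day change that differed from that without S7. Over all tested genes that share was 28.7%. Both tests use the libraries with S7, so genes picked by the first are favoured in the second. Of the 215 called without S7, 161 changed in the same direction with S7, 25 in the opposite direction, and 29 were not called with S7. The calls without S7 were lost when the day 3 library of PCL-O, or that of PCL-E, was left out. Such a fit keeps only the other arm on day 3. Leaving out the day 7 library of either arm instead raised the number of calls. The reason for these changes was not tested. The 25 included Loxl2, Fbln2, Has2, Tnc, Ctsk, Plat and Col16a1. Fbln2, fibulin-2, was at 596 and 576 CPM on day 3 and 262 and 297 CPM on day 7 with S7 (log2 fold change -1.38 ± 0.14, adjusted p = 0.000448) and 249.9 and 352 CPM on day 3 and 671 and 709.6 CPM on day 7 without (difference of the log2 changes -2.52 ± 0.20, adjusted p = 0.00133). Loxl2 was at 425 and 478 CPM on day 3 and 735 and 721 CPM on day 7 without S7 (difference of the log2 changes -1.97 ± 0.13, adjusted p = 0.00105). Both matrix genes fell in the arms with S7, and their day 7 values in PCL-O and PCL-E were above those of day 3. Trim54, a ubiquitin ligase of muscle, had the highest difference, at 1.10 and 1.32 CPM on day 3 and 7.47 and 9.55 CPM on day 7 with S7 and 1.33 and 1.44 CPM on day 3 and 0.152 and 0.0958 CPM on day 7 without (difference of the log2 changes 6.06 ± 0.43, adjusted p = 0.00116).

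Other genes named for the size of that difference follow. Slco2a1, a prostaglandin transporter, was at 42.5 and 38.2 CPM on day 3 and 2.49 and 2.99 CPM on day 7 with S7 (log2 fold change -4.18 ± 0.25, adjusted p = 0.000113) and 3.42 and 4.24 CPM on day 3 and 6.52 and 4.46 CPM on day 7 without (difference of the log2 changes -4.62 ± 0.33, adjusted p = 0.00122). Tnn, tenascin-N, was at 304 and 284 CPM on day 3 and 26.4 and 56.6 CPM on day 7 with S7 (log2 fold change -3.22 ± 0.26, adjusted p = 0.00024) and 19.6 and 26.3 CPM on day 3 and 47.7 and 71.6 CPM on day 7 without (difference of the log2 changes -4.52 ± 0.36, adjusted p = 0.00136). Flt1 was at 19.6 and 23.2 CPM on day 3 and 28.8 and 9.82 CPM on day 7 without S7 (difference of the log2 changes -4.69 ± 0.66, adjusted p = 0.00446), Casq2 at 96.0 and 115 CPM on day 3 and 65.3 and 31.6 CPM on day 7 (difference of the log2 changes -4.64 ± 0.47, adjusted p = 0.00205), Abi3bp at 84.0 and 61.4 CPM on day 3 and 84.2 and 44.0 CPM on day 7 (difference of the log2 changes -4.62 ± 0.42, adjusted p = 0.00169) and Eln at 1190.0 and 1508 CPM on day 3 and 1011 and 305 CPM on day 7 (difference of the log2 changes -5.07 ± 0.96, adjusted p = 0.0106). In Eln and Casq2 PCL-E fell further than PCL-O, so these 2 arms moved apart. The difference had an adjusted p of 0.0674 for Eln without the day 3 library of PCL-O and 0.0565 without that of PCL-SE. Ddit4l, an inhibitor of mTORC1, was at 1.12 and 0.881 CPM on day 3 and 19.7 and 16.4 CPM on day 7 with S7 (log2 fold change 3.86 ± 0.50, adjusted p = 0.00107) and 0.985 and 0.432 CPM on day 3 and 0.121 and 0.599 CPM on day 7 without (difference of the log2 changes 4.79 ± 0.79, adjusted p = 0.00731), with an adjusted p of 0.0508 without the day 3 library of PCL-O. Of the 2 genes named Itprip in the table, after a regulator of the inositol trisphosphate receptor, 1 was at 5.08 and 4.96 CPM on day 3 and 7.92 and 7.57 CPM on day 7 with S7, where it was not called, and 4.46 and 2.71 CPM on day 3 and 0.0303 and 0.0958 CPM on day 7 without (difference of the log2 changes 6.04 ± 0.52, adjusted p = 0.00156). The other was at 12.4 and 12.9 CPM on day 3 and 20.2 and 19.8 CPM on day 7 with S7 and 12.3 and 16.3 CPM on day 3 and 17.1 and 19.0 CPM on day 7 without, and reads may be shared between them. Cd24, a surface glycoprotein, was at 2.37 and 2.47 CPM on day 3 and 18.4 and 26.6 CPM on day 7 with S7 (log2 fold change 2.88 ± 0.54, adjusted p = 0.00487) and 14.6 and 9.25 CPM on day 3 and 2.88 and 11.3 CPM on day 7 without (difference of the log2 changes 3.86 ± 0.75, adjusted p = 0.0116). Without the day 3 library of PCL-SE the adjusted p of its day change was 0.0521 and that of the difference 0.0598, which was 0.05002 without the day 3 library of PCL-S and 0.0502 without the day 7 library of PCL-SE. Pla2g7 was at 2.38 and 2.77 CPM on day 3 and 8.50 and 9.75 CPM on day 7 without S7 (difference of the log2 changes 3.55 ± 0.18, adjusted p = 0.000821), and Rragd at 0.319 and 0.461 CPM on day 3 and 0.455 and 0.719 CPM on day 7 (difference of the log2 changes 3.81 ± 0.57, adjusted p = 0.00528). Cst6 was at 0.435 and 1.61 CPM on day 3 and 0.577 and 2.92 CPM on day 7 without S7 (difference of the log2 changes 4.22 ± 0.95, adjusted p = 0.0188), and its difference had an adjusted p of 0.0666 without the day 3 library of PCL-S, 0.135 without that of PCL-E and 0.0888 without that of PCL-SE. The unnamed locus AABR07015078.2 was at 2.59 and 2.58 CPM on day 3 and 27.1 and 12.4 CPM on day 7 with S7 and 9.91 and 2.62 CPM on day 3 and 1.82 and 2.37 CPM on day 7 without (difference of the log2 changes 3.94 ± 0.72, adjusted p = 0.00991), with 0.0556 without the day 3 library of PCL-S. AABR07028488.1 was at 4.06 and 3.06 CPM on day 3 and 1.27 and 1.56 CPM on day 7 without S7 (difference of the log2 changes -4.85 ± 0.84, adjusted p = 0.00824). The difference for Dr1 (difference of the log2 changes -8.93 ± 2.33, adjusted p = 0.03) had an adjusted p of 0.0666 and 0.0722 without the day 3 libraries of PCL-S and PCL-SE and 0.123 and 0.0988 without their day 7 libraries.

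**Figure D5:**
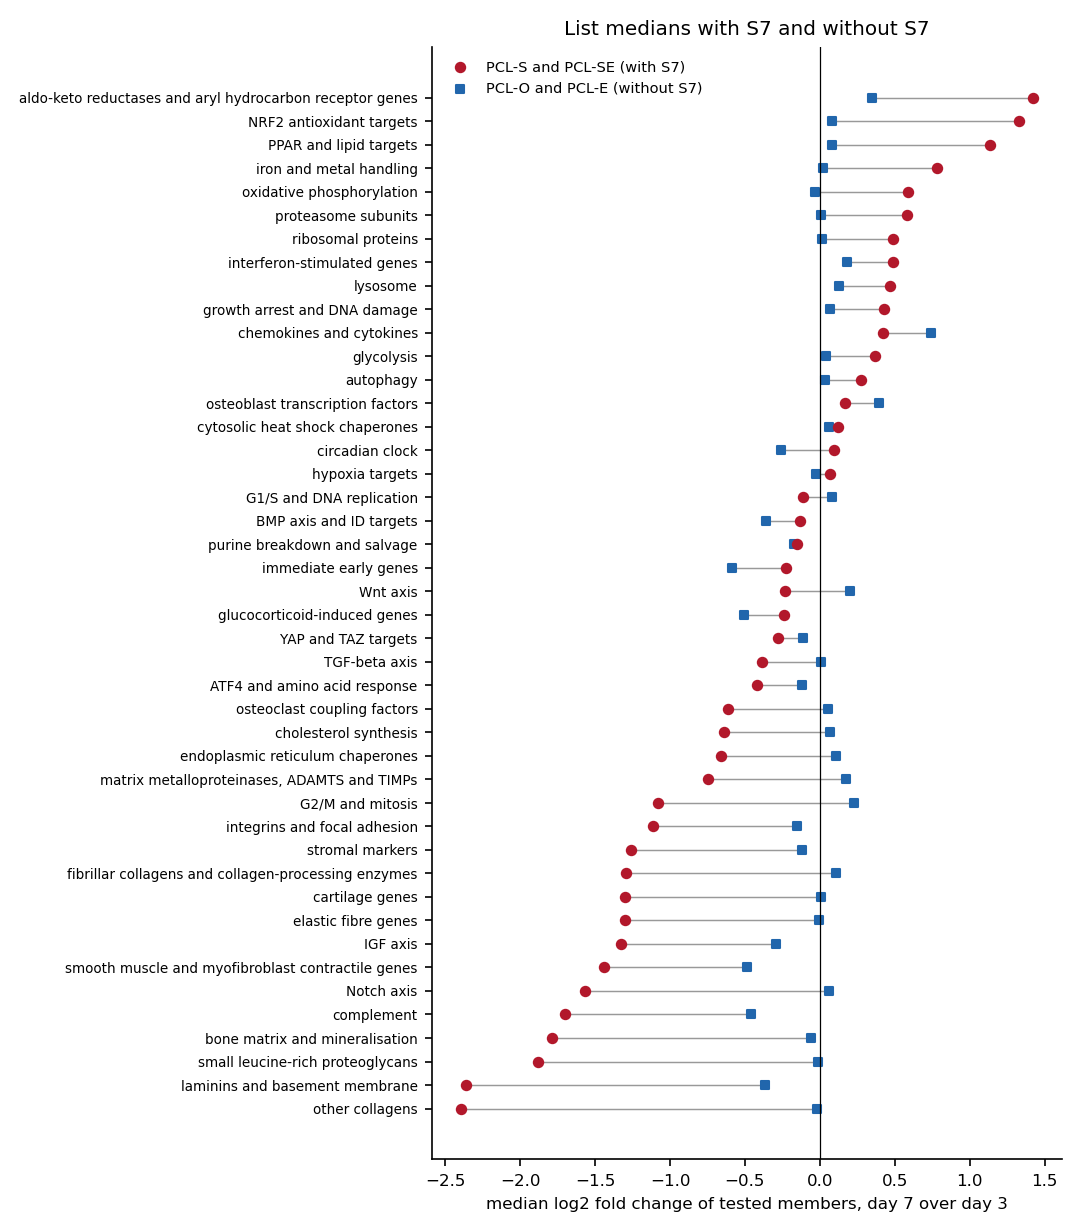
Median log2 ratio of day 7 to day 3 of the tested members of each list (x axis), with circles for PCL-S and PCL-SE and squares for PCL-O and PCL-E. The striated muscle list is not shown because several of its genes had no counts on day 7. Squares mostly lie near 0, from -0.58 for immediate early genes to 0.74 for chemokines, and circles range from -2.40 for the other collagens to 1.43 for the aldo-keto reductase list.

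PCL-SE and PCL-S differed in few genes over these days. Of 7752 genes, 16 changed at least 2-fold more upward in PCL-SE and 17 in PCL-S, with no replicate of either arm and thus no test. The gene with the change most in favour of PCL-S was Ripor2, a regulator of RhoA, at 7.15 and 9.34 CPM on day 3 and 50.9 and 12.2 CPM on day 7. The day 7 library of PCL-S alone was high. In favour of PCL-SE, Fau, a ribosomal fusion gene, was at 114 and 7.05 CPM on day 3 and 13.4 and 30.2 CPM on day 7, and Surf4, a cargo receptor of the endoplasmic reticulum, at 298 and 87.9 CPM on day 3 and 114 and 278 CPM on day 7. Both may share reads with near-identical copies, and in both PCL-S was the higher on day 3 and PCL-SE on day 7. Fos, an immediate early factor, was at 9.27 and 19.5 CPM on day 3 and 22.0 and 13.7 CPM on day 7 and rose in 1 arm's values while it fell in the other's. Of the rest of the genes named by this rule, LOC687780, at 44.6 and 184 CPM on day 3 and 327 and 328 CPM on day 7, and Rps27a, at 80.8 and 211 CPM on day 3 and 548 and 431 CPM on day 7, differed most on day 3, when PCL-S was the lower. LOC100911319 was at 45.9 and 55.6 CPM on day 3 and 51.2 and 14.4 CPM on day 7, LOC108351058 at 2.73 and 3.96 CPM on day 3 and 7.71 and 70.4 CPM on day 7, AABR07072184.1 at 0.0976 and 0.0881 CPM on day 3 and 0.273 and 25.2 CPM on day 7 and AABR07064000.1 at 11.6 and 5.37 CPM on day 3 and 8.01 and 22.1 CPM on day 7, and in each the arms lay further apart on day 7 than on day 3.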

How the data were processed

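Bone marrow mesenchymal stem cells of 4 scaffold arms on 2 days gave 8 libraries, prepared with a SMARTER mRNA kit from TRIzol-extracted RNA, per the labels' protocols. Those protocols speak of n = 3 RNA samples, while the table has 1 column per arm and day. The deposited count columns hold raw counts per gene. The deposited FPKM columns, values scaled by the authors to gene length and library size, were used only to derive gene lengths. The aligner, the counter and the use of strand were not given in the sources used here, and mm10 comes from the submitters' processing notes. The table pairs rat Ensembl identifiers with symbols, and the species was not settled.

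The table held 26873 features, of which 4823 carried no Ensembl identifier, and 10 broken lines were dropped. The 60 columns of the authors' own comparisons were not used. Library totals ranged from 32950326 to 41754124 counts, which limits counting error only. CPM are scaled to these totals, and fold changes use TMM.

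All 8 libraries were fitted with edgeR 4.0.16 (R 4.3.3, limma 3.58.1) by the quasi-likelihood test after filterByExpr, with S7, day, their interaction and E7 as terms, which left 3 residual degrees of freedom. Each contrast was adjusted by Benjamini-Hochberg over 15942 genes and called at 0.05. With 1 library per arm and day, p-values measure the departure from these terms and not the spread between cultures. Counts were also simulated for the day change with S7 over 15942 genes, with the spread of the fit. In them 100 genes were altered 2-fold and 100 by 4-fold, and the others had no day change with S7. The test found 52% of the genes altered 2-fold, 92% of those altered 4-fold and 0 others. In the data 50.7% of the tested genes were called, so these shares do not carry over to the data.

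The genes named by rule were the 14 largest called rises and falls with days that do not overlap, the 8 largest called differences in each direction and the 5 largest differences between PCL-SE and PCL-S in each direction. Of 966 symbols in 48 gene lists, 927 were found in the table. Where 2 identifiers share a symbol, the one with more counts was used, except that a gene named by rule kept its own. Members and lists were chosen with earlier results of these data known. Alternatives were RLE, upper-quartile and total-count scaling, other filters, DESeq2 1.42.0, a 2-fold minimum, other designs and each library left out. Removal of the trend on gene length, by lowess per library, was added after seeing the data. A few genes are not reported here, though list counts include all tested members.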

Additional observations from a re-analysis of the deposited data

Results flagged for a closer look

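The day change with S7 differed from that without S7, by the interaction term of edgeR's quasi-likelihood test, in 2105 genes with the higher and 2473 with the lower change under S7. The results below were singled out because this test of the difference between the 2 sets of arms passed an adjusted p of 0.05, and the 2 sets share no library. Values are differences of log2 changes, with S7 minus without.

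Among genes with the lower change under S7, the differences were -8.93 for Dr1, a transcriptional repressor, and -5.07 for Eln, elastin. They were -4.85 for AABR07028488.1, -4.69 for the VEGF receptor Flt1, -4.64 for the calcium store Casq2 and -4.62 for both the transporter Slco2a1 and the matrix protein Abi3bp. Tenascin-N, Tnn, had -4.52. Contractile, mineral and collagen genes followed, with -3.71 for Myh11, -3.09 for Alpl, -2.76 for Col1a1, -2.52 for Fbln2, -2.05 for Ctsk and -1.97 for Loxl2. In Fbln2, Ctsk and Loxl2 the course without S7 was itself called higher with all 8 libraries, a call lost when the day 3 library of PCL-O or that of PCL-E was left out, which left 0 genes called without S7.

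Among genes with the higher change under S7, the differences were 6.06 for Trim54, a muscle ubiquitin ligase, and 6.04 for 1 of the 2 genes named Itprip, whose levels without S7 came close to 0 on day 7. They were 4.79 for Ddit4l, 4.22 for Cst6, 3.94 for AABR07015078.2, 3.86 for Cd24, 3.81 for Rragd and 3.55 for Pla2g7. The aldose reductase Akr1b1 had 2.003, Tiparp 1.49 and Gclc, of glutathione synthesis, 1.43. The differences for Dr1, Eln, Ddit4l, Cst6, AABR07015078.2, Cd24, Akr1b1 and Tiparp did not pass the threshold in every fit that left out 1 library, as given with each of them above.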

How the results depend on the processing

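Of 198 named genes called with S7, 185 stayed called in the same direction under every alternative other than the 2-fold minimum, and the 13 others lost the call under at least 1. These genes were named by the size of a change or chosen after their values were seen, so these numbers do not carry over to other genes. Mmp2, not called, was called higher under total-count scaling, with a log2 change of 0.25. The day change with S7 stood at 3889 higher and 4201 lower genes, and RLE or upper-quartile scaling, other filters, DESeq2, the fit without E7, the arm as a block, the 4 libraries alone and removal of the length trend kept both numbers within 1.5 times. Total-count scaling gave 6255 and 2685, and a test against a 2-fold minimum gave 267 and 888. Leaving out 1 library at a time gave 2006 to 4501 higher and 2473 to 4754 lower genes. For the difference between arms with and without S7, total-count scaling gave 3721 higher genes, the 2-fold minimum 55 higher and 301 lower, and the leave-one-library-out fits 589 to 3010 higher and 948 to 3209 lower. Without S7, DESeq2 called 290 higher and 537 lower genes, the 2-fold minimum 0 and 1, and the fit with the length trend removed 229 lower. Leaving out a library there gave 0 to 518 higher and 0 to 829 lower genes, with 0 when the day 3 library of PCL-O or of PCL-E was the one left out. Side by side, on CPM scaled to total counts, PCL-S had 1032 genes 2-fold higher and 381 lower, PCL-SE 921 and 364, and both arms together 783 and 324. With genes of at least 5 CPM in place of 20, 28 genes moved 2-fold further upward in PCL-SE and 35 in PCL-S.

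Medians of 8 lists changed sign under total-count scaling, to 0.0663 for glucocorticoid-induced genes, 0.265 for adipocyte markers, 0.196 for G1/S genes, 0.175 for the BMP axis, 0.0709 for the Wnt axis, 0.0293 for YAP and TAZ targets, 0.0840 for immediate early genes and 0.154 for purine genes. With the length trend removed, 4 changed sign, to 0.0181 for adipocyte markers, -0.00438 for hypoxia targets, 0.0677 for the Wnt axis and 0.0881 for YAP and TAZ targets. RLE, upper-quartile scaling and DESeq2 changed no median's sign. The causes of these changes were not tested.

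The main limit is that no arm was repeated on a day. A change that PCL-S and PCL-SE do not share is counted as error, and anything that moved both arms between the days, such as culture or library preparation, cannot be told apart from time. Counts are relative, so the direction of groups with medians near 0 depends on the scaling, and long and short genes moved apart. Genes with a few counts on a day have fold changes that depend on the fit.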
